A study of Mus musculus with 8 samples.

Results

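The Notch pathway was followed through 10 genes, the receptors Notch1, Notch2 and Notch3, the ligands Jag1, Jag2 and Dll1, the transcriptional repressors Hes1, Hey1 and Heyl, and the ubiquitin ligase Dtx4, in tumour cells sorted from mouse back skin. Members were taken by symbol, as probe sets that map to 1 of these symbols only, and 9 of the 10 had one, out of 17097 genes with such a probe set. They had 15 probe sets between them, and the one with the highest mean over all arrays led for each gene. Jag2 had no probe set that maps to its symbol alone and was not analysed here. RNA was amplified and measured on 8 Affymetrix mouse arrays, 1 per sorted population and mouse. Every mouse, controls included, was K14-CreER/Ptch1cKO, with a Cre-oestrogen receptor fusion expressed from the keratin 14 promoter of basal keratinocytes and a conditional knockout of Ptch1, the receptor that restrains Smoothened in the Hedgehog pathway. Their tumours are basal cell carcinomas. There were 2 mice labelled untreated and 2 labelled vismodegib-treated, a drug that blocks Smoothened. From each mouse an Lgr5+Lrig1+ population and a population without Lgr5-GFP (spelled Lrg5-Lrig1+ in the labels) were sorted. The resulting 4 groups have n = 2 mice each and are called untreated or vismodegib, and Lgr5-positive or Lgr5-negative. For age, sex, Cre induction, dose and duration of treatment the labels were silent.

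Notch receptors are bound by Jagged and Delta ligands on neighbouring cells and are then cut by an ADAM protease and by gamma-secretase. The freed intracellular domain joins the DNA-binding protein RBPJ and switches on targets such as the Hes and Hey repressors. In the epidermis the pathway promotes the step from basal to suprabasal keratinocyte, and in mouse skin Notch1 acts as a tumour suppressor.

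The labels were checked against the sorted and targeted genes. Lgr5 lay between 9.44 and 11.00 on the log2 scale in the 4 Lgr5-positive arrays. In the Lgr5-negative ones it lay between 8.40 and 8.52 without the drug and between 4.83 and 5.46 with it. The Lgr5-negative groups thus differed in Lgr5 level between treatments. Lrig1 lay between 10.63 and 11.60 in all 8. Gli1, the Hedgehog transcription factor, had values from 8.75 to 10.13 without the drug and from 6.37 to 6.56 with it. All values are deposited log2 signals, so a difference of 1 is a 2-fold change. A gene is said to rise, fall or change only where limma's adjusted p, taken over the 14403 genes tested, was under 0.05, and each difference is given with its standard error.

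Vismodegib changed more of the Notch genes in Lgr5-positive than in Lgr5-negative cells by count, as it did of all genes tested. In Lgr5-positive cells Dtx4 rose 4.07-fold, Notch3 2.62-fold and the ligand Dll1 2.24-fold, while the ligand Jag1 fell 1.73-fold and the target Hes1 1.66-fold. In Lgr5-negative cells Notch3 (2.11-fold) and Dtx4 (1.87-fold) rose. The difference between the effects in the 2 populations did not pass for any of the 9 members. In untreated tumours Notch3, Dtx4 and Notch2 were lower and Jag1 and Hes1 higher in Lgr5-positive than in Lgr5-negative cells, and after vismodegib no member passed between the populations. As counts, 3 rose and 2 fell of 9 under vismodegib in Lgr5-positive cells, where 10.9% of all genes tested changed (6.37% up and 4.51% down). In Lgr5-negative cells 2 rose and 0 fell, against 3.32% of all genes (1.26% up and 2.06% down). Between untreated populations 2 were higher and 3 lower, against 17.1% (6.21% higher and 10.9% lower). After vismodegib 0 of 9 passed by limma, against 0.472% of all genes (0.34% higher and 0.132% lower), with 2 at an unadjusted p under 0.05. For the difference between effects 0 of 9 passed by limma, against 1.4% (0.993% higher and 0.41% lower), with 3 at an unadjusted p under 0.05.

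**Figure D1:**
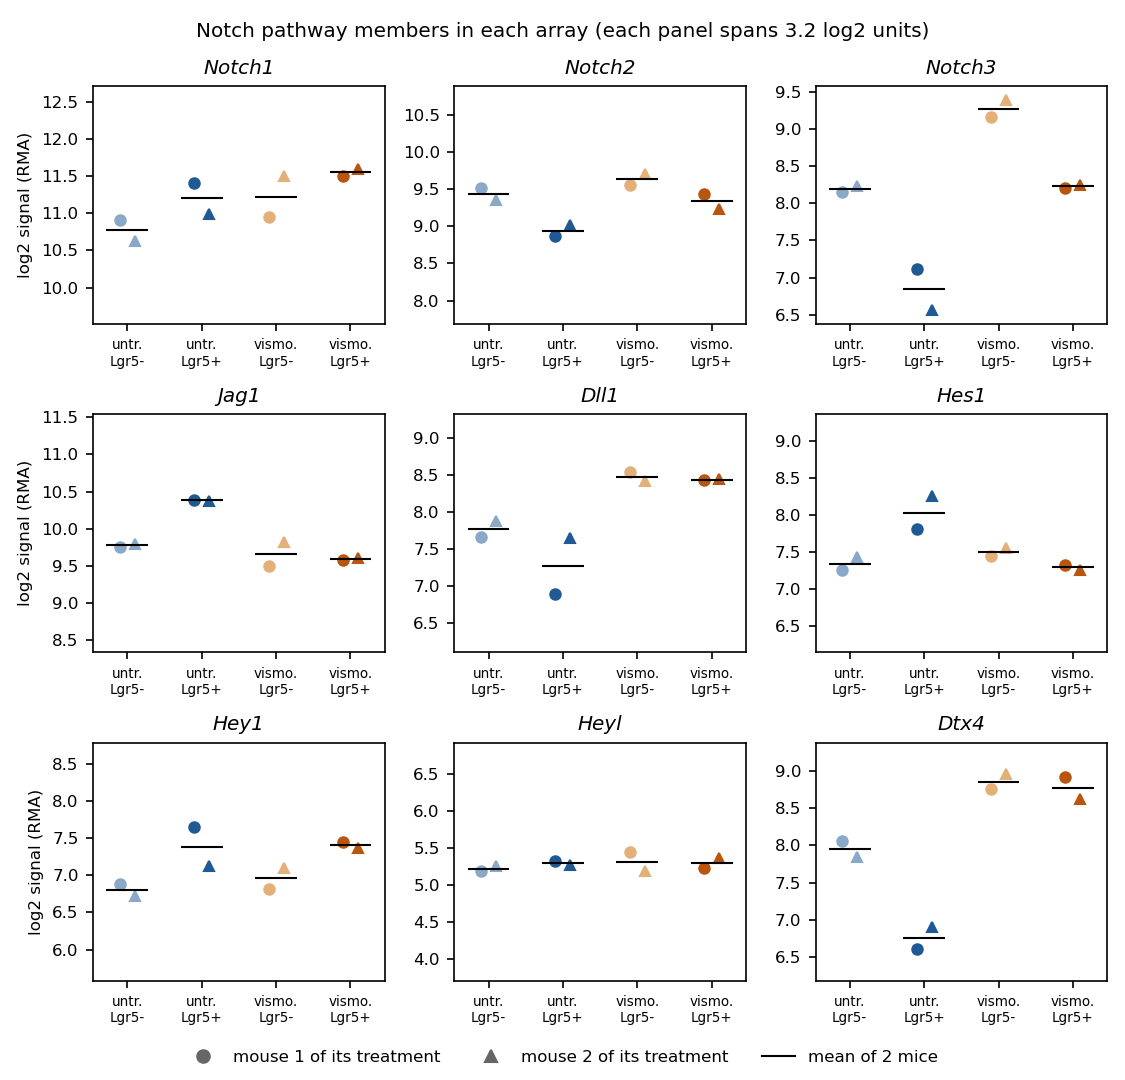
Log2 signal (RMA) of the leading probe set of each of the 9 measured members in every array. Circles and triangles are mouse 1 and mouse 2 of each treatment, bars are means of 2 mice, and every panel spans the same 3.2 log2 units. In Notch2, Notch3, Dll1 and Dtx4 the untreated Lgr5-positive arrays lie below all others, in Dll1 by a small margin.

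The ligands moved in opposite directions in Lgr5-positive cells, and their upstream sequences are shown for that reason. They come from the RefSeq promoter table (GRCm38.p6), which held 6 of the 10 members by symbol, and are the 250 bases before the annotated start, 5′ to 3′ on the gene's strand, at chr2:137116521-137116770 (minus strand) for Jag1 and chr17:15376933-15377182 (minus strand) for the more distal of 2 Dll1 starts.
Jag1: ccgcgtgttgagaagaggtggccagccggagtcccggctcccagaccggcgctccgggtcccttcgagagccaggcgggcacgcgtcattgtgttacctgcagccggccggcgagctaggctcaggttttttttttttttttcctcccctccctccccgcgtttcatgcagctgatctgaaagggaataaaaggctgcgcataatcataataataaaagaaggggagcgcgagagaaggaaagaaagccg
Dll1: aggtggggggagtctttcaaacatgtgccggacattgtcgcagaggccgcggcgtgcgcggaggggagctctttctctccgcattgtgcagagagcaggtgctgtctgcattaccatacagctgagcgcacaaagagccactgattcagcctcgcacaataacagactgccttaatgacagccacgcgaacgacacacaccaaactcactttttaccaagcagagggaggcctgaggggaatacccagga
Short motifs were searched on both strands, the RBPJ core TGGGAA, the GLI core CCACCCA and the E-box CACGTG, none of which contains another. Each was found in 0 of the 7 windows of the 6 members, against 21.59%, 8.11% and 6.02% of the 32851 windows of the same length in the table. The Jag1 and Dll1 windows hold 57.2% and 56.0% G and C. No capitals are shown because no motif matched, which says only that these letters are not in these windows.

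Among the receptors, Notch3 showed the widest movement. Its values were 8.16 and 8.23 in untreated Lgr5-negative cells (mouse 1 and mouse 2, in this order throughout), 7.12 and 6.57 in untreated Lgr5-positive cells, 9.16 and 9.39 in vismodegib Lgr5-negative cells, and 8.21 and 8.25 in vismodegib Lgr5-positive cells. The untreated Lgr5-positive arrays are the lowest and the vismodegib Lgr5-negative arrays the highest, and the other 2 groups overlap between them. With vismodegib Notch3 rose by 1.39 ± 0.19 in Lgr5-positive cells (adjusted p = 0.00394) and by 1.08 ± 0.19 in Lgr5-negative cells (adjusted p = 0.0288). The difference between these effects, 0.31 ± 0.26, did not pass (95% interval −0.30 to 0.92). Lgr5-positive cells were lower by 1.35 ± 0.19 in untreated mice (adjusted p = 0.00393) and stood at −1.04 ± 0.19 after vismodegib, without passing (adjusted p = 0.0783).

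The suffix of the leading Notch3 probe set marks possible binding to further transcripts. Its other probe set, without that suffix, gave a vismodegib effect of 1.37 ± 0.24 in Lgr5-positive cells and 1.28 ± 0.24 in Lgr5-negative cells, and −1.41 ± 0.24 between untreated populations, and all 3 passed. The rise in Lgr5-positive cells and the untreated difference passed under each of the 17 alternatives fitted. The rise in Lgr5-negative cells was less firm: it did not pass without mouse 1 or mouse 2 of the untreated Lgr5-negative (adjusted p = 0.139 and 0.18), vismodegib Lgr5-negative (0.0517 and 0.0968) or vismodegib Lgr5-positive arrays (0.0611 each). Without either untreated Lgr5-positive array, the difference after vismodegib did pass (adjusted p = 0.0395 each).

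Notch1, the receptor named above as a tumour suppressor in skin, passed in no comparison by its leading probe set. It stood at 10.91 and 10.63 in untreated Lgr5-negative cells, 11.41 and 11.00 in untreated Lgr5-positive cells, 10.95 and 11.50 in vismodegib Lgr5-negative cells, and 11.51 and 11.60 in vismodegib Lgr5-positive cells. In both populations the vismodegib arrays lie above the untreated ones, and the 2 middle groups overlap. Vismodegib gave 0.35 ± 0.22 in Lgr5-positive and 0.45 ± 0.22 in Lgr5-negative cells, and neither passed (adjusted p = 0.384 and 0.323). Its other probe set gave 0.75 ± 0.15 in Lgr5-negative cells and did pass (adjusted p = 0.0473), so the call for Notch1 there depends on the probe set.

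Notch2 had its lowest values in untreated Lgr5-positive cells. Values were 9.51 and 9.35 in untreated Lgr5-negative cells, 8.87 and 9.02 in untreated Lgr5-positive cells, 9.56 and 9.71 in vismodegib Lgr5-negative cells, and 9.44 and 9.24 in vismodegib Lgr5-positive cells. The untreated Lgr5-positive arrays do not overlap with any other group. Notch2 was lower by 0.49 ± 0.13 in Lgr5-positive cells of untreated mice (adjusted p = 0.0445), and vismodegib gave 0.39 ± 0.13 in these cells without passing (adjusted p = 0.111). The untreated call ended with the mouse as a block (adjusted p = 0.0759), after cyclic loess normalisation (−0.34, adjusted p = 0.162), without any single untreated array (0.0694 to 0.213) and without either vismodegib Lgr5-positive array (0.0645 each).

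Of the ligands, Jag1, which is expressed by basal and follicle keratinocytes, was highest in untreated Lgr5-positive cells. It stood at 9.75 and 9.80 in untreated Lgr5-negative cells, 10.39 and 10.37 in untreated Lgr5-positive cells, 9.49 and 9.82 in vismodegib Lgr5-negative cells, and 9.57 and 9.61 in vismodegib Lgr5-positive cells. The untreated Lgr5-positive arrays lie above the other 6, among which the vismodegib Lgr5-negative arrays overlap with both remaining groups. Jag1 fell by 0.79 ± 0.13 with vismodegib in Lgr5-positive cells (adjusted p = 0.0104), and in untreated mice it was higher in these cells by 0.60 ± 0.13 (adjusted p = 0.0226). In Lgr5-negative cells vismodegib gave −0.12 ± 0.13, and the difference between the effects, −0.67 ± 0.19, did not pass (adjusted p = 0.132).

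The other Jag1 probe set had −0.84 ± 0.23 for vismodegib in Lgr5-positive cells and 0.47 ± 0.23 between untreated populations, and neither passed (adjusted p = 0.0559 and 0.202). It read 9.48 and 9.12 in untreated Lgr5-positive and 8.51 and 9.14 in untreated Lgr5-negative cells, so these groups overlap there. By the leading probe set the fall did not pass without mouse 1 or mouse 2 of the vismodegib Lgr5-positive group (adjusted p = 0.076 and 0.0577). The untreated difference did not pass without any single one of the untreated arrays (adjusted p between 0.0631 and 0.122).

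Dll1, a Delta ligand that basal keratinocytes use to signal to neighbours, was higher after treatment in both populations by its values. They were 7.67 and 7.88 in untreated Lgr5-negative cells, 6.89 and 7.65 in untreated Lgr5-positive cells, 8.53 and 8.42 in vismodegib Lgr5-negative cells, and 8.43 and 8.44 in vismodegib Lgr5-positive cells. All 4 vismodegib arrays lie above all 4 untreated ones. Dll1 rose by 1.16 ± 0.23 in Lgr5-positive cells (adjusted p = 0.0193), and in Lgr5-negative cells it stood at 0.70 ± 0.23 without passing (adjusted p = 0.155). The difference between these effects was 0.46 ± 0.32 (95% interval −0.30 to 1.22) and did not pass. Between populations Dll1 differed by −0.50 ± 0.23 in untreated mice and −0.04 ± 0.23 after vismodegib, without passing.

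Both the Dll1 call and the missing calls rest on few arrays. The rise did not pass without vismodegib Lgr5-positive mouse 1 or 2 (adjusted p = 0.105 and 0.0942). Without either untreated Lgr5-positive array the value in Lgr5-negative cells passed at an unchanged 0.70. Those arrays lie outside that comparison and entered only its standard error, 0.12 against 0.23 in the main fit. Without untreated Lgr5-positive mouse 2 the untreated populations differed by −0.88 and passed.

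Among the targets, Hes1, a bHLH repressor induced directly by Notch, was highest in untreated Lgr5-positive cells. It measured 7.26 and 7.43 in untreated Lgr5-negative cells, 7.80 and 8.25 in untreated Lgr5-positive cells, 7.44 and 7.56 in vismodegib Lgr5-negative cells, and 7.33 and 7.26 in vismodegib Lgr5-positive cells. The untreated Lgr5-positive arrays lie above the other 6, although they differ from each other by more than any other pair. Hes1 fell by 0.73 ± 0.16 with vismodegib in Lgr5-positive cells (adjusted p = 0.0297) and was higher in these cells by 0.68 ± 0.16 in untreated mice (adjusted p = 0.0299). Vismodegib gave 0.16 ± 0.16 in Lgr5-negative cells, and the difference between the effects was −0.89 ± 0.23 without passing (adjusted p = 0.112).

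The calls for Hes1 were sensitive to single arrays. The fall did not pass without either untreated Lgr5-negative array (adjusted p = 0.058 each), without untreated Lgr5-positive mouse 2 (−0.51, 0.0994) or without mouse 1 or mouse 2 of vismodegib Lgr5-positive (0.13 and 0.143). The untreated difference did not pass without untreated Lgr5-negative mouse 1 or 2 (adjusted p = 0.154 and 0.11), untreated Lgr5-positive mouse 2 (0.46, 0.0907) or either vismodegib Lgr5-positive array (0.0553 each). Without untreated Lgr5-positive mouse 1 the difference between effects passed at −1.11 (adjusted p = 0.0497). With only the 4 arrays compared, the fall and the untreated difference had adjusted p = 0.0761 and 0.0617.

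Hey1, a related repressor, had 6.89 and 6.72 in untreated Lgr5-negative cells, 7.65 and 7.13 in untreated Lgr5-positive cells, 6.82 and 7.10 in vismodegib Lgr5-negative cells, and 7.45 and 7.37 in vismodegib Lgr5-positive cells. In each treatment the Lgr5-positive arrays lie above the Lgr5-negative ones, and within each population the treatments overlap. The population difference was 0.58 ± 0.19 in untreated mice and 0.45 ± 0.19 after vismodegib, and neither passed (adjusted p = 0.0747 and 0.403). With the mouse as a block the untreated difference passed (adjusted p = 0.0493), and so it did without untreated Lgr5-positive mouse 2 (0.85, adjusted p = 0.0257). Vismodegib gave 0.02 ± 0.19 and 0.16 ± 0.19 in Lgr5-positive and Lgr5-negative cells, with 95% intervals of −0.42 to 0.47 and −0.29 to 0.60.

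Heyl, the third Hey repressor and a known Notch3 target in vessel walls, was dim. Its leading probe set lay between 5.19 and 5.44 in all 8 arrays, close to the 4.85 below which genes were treated as dim, and no comparison passed. A second probe set, above 4.85 in 6 of 8 arrays, read 5.34 and 5.20 in untreated Lgr5-negative cells, 5.93 and 5.64 in untreated Lgr5-positive cells, 4.70 and 4.68 in vismodegib Lgr5-negative cells, and 4.92 and 5.16 in vismodegib Lgr5-positive cells. By that probe set vismodegib gave −0.74 ± 0.15 in Lgr5-positive cells (adjusted p = 0.02), so the probe sets disagree and no direction is given for Heyl.

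Dtx4, a ubiquitin ligase of the Deltex family whose members bind the intracellular part of Notch receptors, had the largest vismodegib effect of the 9 members in Lgr5-positive cells. It read 8.06 and 7.84 in untreated Lgr5-negative cells, 6.61 and 6.90 in untreated Lgr5-positive cells, 8.76 and 8.96 in vismodegib Lgr5-negative cells, and 8.93 and 8.63 in vismodegib Lgr5-positive cells. The untreated Lgr5-positive arrays are the lowest, the untreated Lgr5-negative arrays are next, and the vismodegib groups overlap above both. Dtx4 rose by 2.03 ± 0.17 in Lgr5-positive cells (adjusted p = 0.000556) and by 0.91 ± 0.17 in Lgr5-negative cells (adjusted p = 0.0357). In untreated mice Lgr5-positive cells were lower by 1.20 ± 0.17 (adjusted p = 0.00414), while after vismodegib the populations differed by −0.08 ± 0.17 (95% interval −0.47 to 0.31) without passing.

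The vismodegib effects on Dtx4 differed by 1.12 ± 0.23, which did not pass (adjusted p = 0.0714, and between 0.0575 and 0.225 over its alternatives). The second Dtx4 probe set gave 1.75 ± 0.21 in Lgr5-positive cells and −1.04 ± 0.21 between untreated populations, which passed, and 0.83 ± 0.21 in Lgr5-negative cells, which did not (adjusted p = 0.0839). Both of the leading probe set's Lgr5-positive calls held in each of the 17 alternatives. Its rise in Lgr5-negative cells did not pass without mouse 1 or mouse 2 of the untreated Lgr5-negative (adjusted p = 0.102 and 0.256), vismodegib Lgr5-negative (0.0568 and 0.113) or vismodegib Lgr5-positive arrays (0.0536 each).

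**Figure D2:**
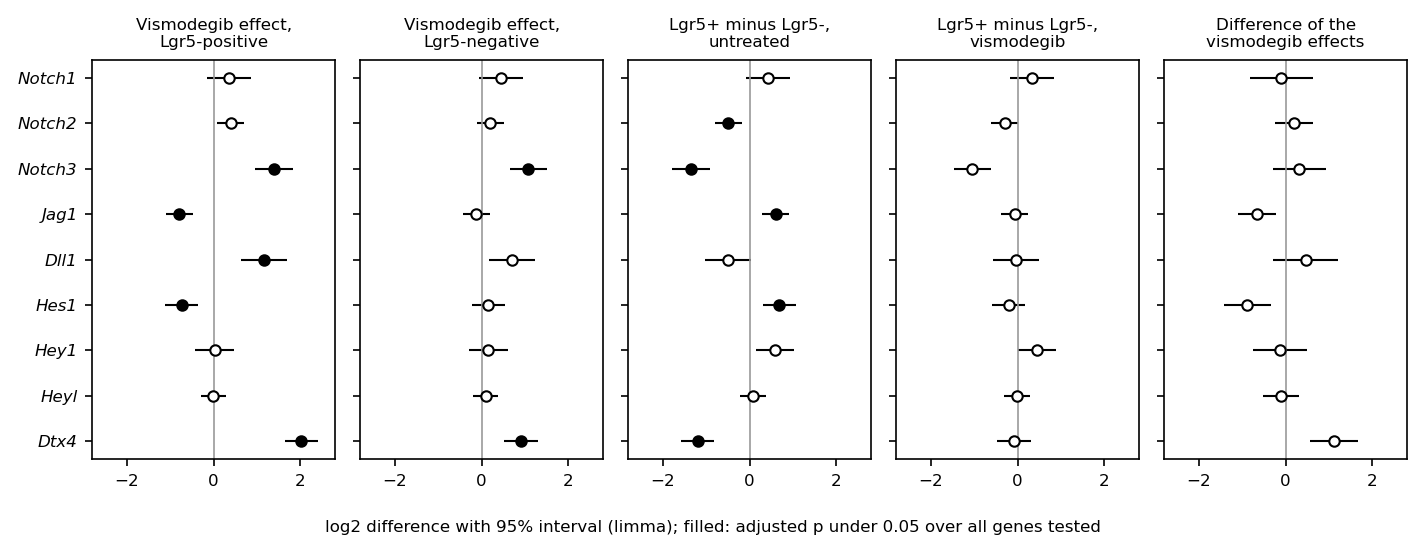
Log2 difference of each member with its 95% interval from limma, in the 4 comparisons of groups and in the difference between the vismodegib effects. Filled points have an adjusted p under 0.05, which holds for 5, 2, 5, 0 and 0 of the 9 members from left to right.

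The members were chosen with earlier results of these data known, so their values as a set are descriptions and no test. The 9 members had a median difference of 0.35 for vismodegib in Lgr5-positive cells, against −0.01 over all genes tested. In Lgr5-negative cells it was 0.20 against 0.00. Between untreated populations the median was 0.08 against 0.02. The groups did not overlap in 7 of 9 members for vismodegib in Lgr5-positive cells, where 54.8% of all genes did so, in 6 of 9 in Lgr5-negative cells (51.4%), in 9 of 9 between untreated populations (64.6%) and in 5 of 9 after vismodegib (43.7%). The comparisons of vismodegib in Lgr5-positive cells and of untreated populations share the untreated Lgr5-positive arrays, so a gene that is high or low there moves in both. Leaving out vismodegib Lgr5-positive mouse 1 or mouse 2 reduced the 5 called members for vismodegib in Lgr5-positive cells to 2 each, Notch3 and Dtx4. In Lgr5-negative cells the 2 calls became 0 without any single array of the untreated Lgr5-negative, vismodegib Lgr5-negative or vismodegib Lgr5-positive groups. Between untreated populations only Notch3 and Dtx4 kept their calls whichever array was left out. Notch2, Jag1 and Hes1 lost theirs without mouse 1 or 2 of untreated Lgr5-negative. They also did without untreated Lgr5-positive mouse 2, where Dll1 and Hey1 gained calls. Without untreated Lgr5-positive mouse 1 Notch2 and Jag1 lost theirs, and without either vismodegib Lgr5-positive array Notch2 and Hes1 did. In each of these fits the calls over all genes also became fewer, so the losses are no result about the members.

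In their pattern over the 8 arrays, the members split into groups. Dll1 and Dtx4 had r = 0.926, Notch2 and Notch3 r = 0.9, Notch3 and Dtx4 r = 0.874, and Jag1 and Hes1 r = 0.864. Jag1 ran opposite to Dtx4 (r = −0.916) and to Dll1 (r = −0.839). Notch1 and Hey1 had r = 0.823. These are descriptions over 8 arrays that share 4 groups and 4 mice, and no test was made of them.

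Over genes that spanned at least 1 log2 unit (3529 candidates), the nearest patterns by Pearson's r over 8 arrays were Vegfa (0.992), a blood vessel growth factor, and Crybg2 (0.989) for Dtx4. Chst15 (0.973), an enzyme of chondroitin sulphate, and the protease gene Bace2 (0.966) lay nearest to Notch3. Jag1 had Gdpd5 (0.985) and the amino acid transporter gene Slc38a2 (0.984). Hes1 had Pnpt1 (0.974), which acts on mitochondrial RNA, and the ephrin receptor gene Ephb4 (0.968). Hey1 had Mlxip (0.986) and Afdn (0.947), Notch2 had the ephrin receptor gene Epha4 (0.967) and Gm2164 (0.964), Notch1 had Ankrd52 (0.947) and Slc25a27 (0.942), and the dim Heyl had Gpx8 (0.91) and Pter (0.884). For Dll1 they were the chemokine gene Cxcl16 (0.979) and Cd52 (0.979), which encodes a leukocyte surface protein. These too are descriptions with no test.

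Other genes of the pathway were read from a list of 79, of which 69 had a probe set and 64 were bright enough to test. Under vismodegib in Lgr5-positive cells 5 rose and 3 fell, 8 of the 64, with a median of −0.09. That share is near the 10.9% of all genes tested, so the count is no result about the pathway, and the genes are given as single values. Neurl1b, a ubiquitin ligase that drives the uptake of ligands, rose by 2.60 ± 0.32 (adjusted p = 0.00268), more than any member. Rfng, a fringe glycosyltransferase that adds sugars to Notch, rose by 1.17 ± 0.15, and the gamma-secretase subunit gene Aph1c by 0.72 ± 0.18. On the other side Id3 fell by 1.13 ± 0.25, the proprotein convertase gene Furin by 0.76 ± 0.18 and Dtx3, of the Deltex family, by 0.65 ± 0.17. Id3, an inhibitory helix-loop-helix gene, was listed among bHLH relatives and feedback genes.

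The counts by role come from small lists and are no result about a role. Over all genes tested 6.37% rose and 4.51% fell in Lgr5-positive cells. There 3 of 9 tested proteases rose (Adam10 by 0.69 ± 0.15, Adam17 and Aph1c) and 1 fell. Of 4 ligand ubiquitin ligases 1 rose, and of 7 fringe and glycosylation enzymes 1 rose. None of the 6 tested genes of the nuclear complex and none of the 10 corepressors passed. RBPJ itself (Rbpj) stood at 0.23 ± 0.23 in Lgr5-positive and −0.14 ± 0.23 in Lgr5-negative cells, without passing. Notch4, the receptor of endothelium, stood at −0.59 ± 0.15 in Lgr5-positive cells without passing (adjusted p = 0.0511), the endothelial ligand gene Dll4 at −0.22 ± 0.14 and the target Hes5 at 0.01 ± 0.16.

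In Lgr5-negative cells 1 of the 64 rose and 1 fell, at a median of 0.01, a share near the 3.32% of all genes. Dtx3l, a Deltex relative, rose by 0.96 ± 0.12 (adjusted p = 0.00918), and the gamma-secretase subunit gene Aph1a fell by 0.69 ± 0.12 (adjusted p = 0.034).

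Between untreated populations 7 of the 64 were higher and 5 lower in Lgr5-positive cells, at a median of 0.09. These 12 are again a share near that of all genes, 17.1%. Dtx3 (1.34 ± 0.17), Id3 (1.24 ± 0.25) and the fringe gene Lfng (1.21 ± 0.31) were higher. Neurl1b (−2.07 ± 0.32), Adam10 (−0.91 ± 0.15), which makes the first cut in ligand-bound Notch, and Rfng (−0.84 ± 0.15) were lower. After vismodegib 0 of the 64 passed by limma between populations, against 0.472% of all genes, with 5 at an unadjusted p under 0.05. For the difference between effects 0 passed by limma, against 1.4% of all genes, with 12 at an unadjusted p under 0.05.

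**Figure D3:**
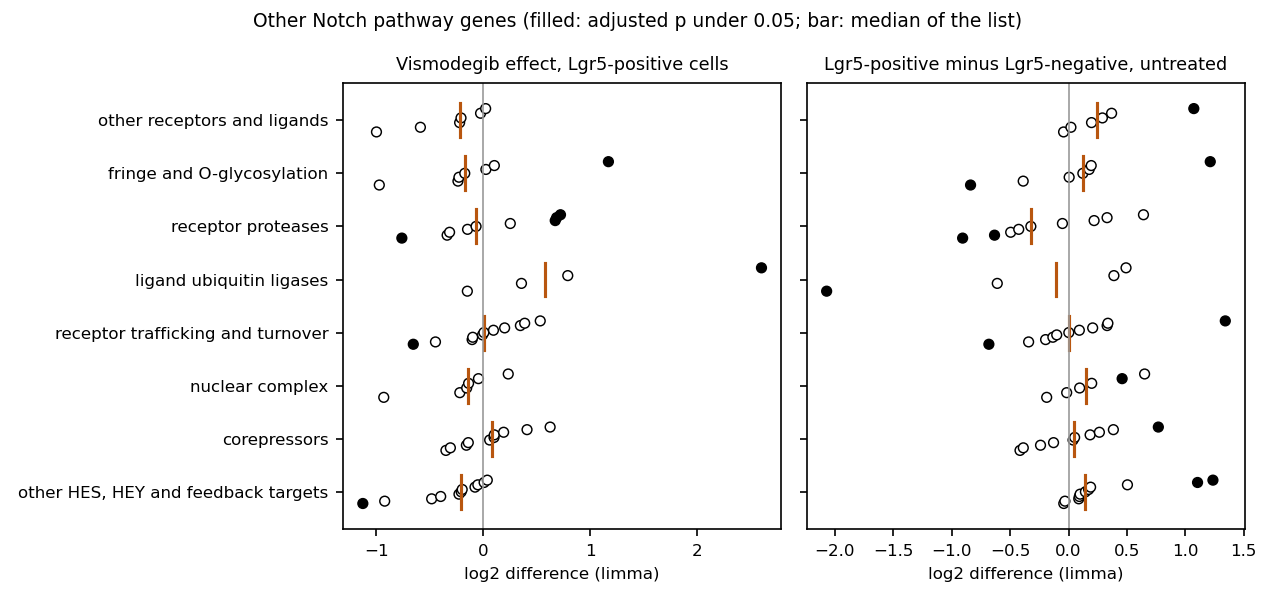
Log2 difference from limma of the 64 tested other genes of the pathway by role, for vismodegib in Lgr5-positive cells (left) and between untreated populations (right). Each point is a gene, filled where the adjusted p is under 0.05, and the bar is the median of its list. Neurl1b, at 2.60 on the left and −2.07 on the right, is the farthest point in both.

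Markers of other cells and states moved with these comparisons. Over all genes tested, 6.37% rose with vismodegib in Lgr5-positive cells and 1.26% in Lgr5-negative cells. Between untreated populations 10.9% were lower in Lgr5-positive cells. Suprabasal keratinocyte markers (12 measured of 13) had a summed linear signal of 17270 to 17860 in untreated Lgr5-negative, 4169 to 6308 in untreated Lgr5-positive, 20010 to 22860 in vismodegib Lgr5-negative and 11760 to 12850 in vismodegib Lgr5-positive arrays. Of these 12 genes, 5 rose and 0 fell with vismodegib in Lgr5-positive cells, led by Krt77 (4.55 ± 0.41) and Sprr1a (2.30 ± 0.43), and 2 rose in Lgr5-negative cells. In untreated mice 7 were lower in Lgr5-positive cells, led by Krt1 (−3.19 ± 0.37) and Grhl3 (−2.64 ± 0.25). Untreated Lgr5-positive arrays were thus the lowest for these markers and for Notch2, Notch3, Dll1 and Dtx4. The part of these markers in the values of those members was not tested. In RNA from sorted pools, fewer cells of a type and less RNA per cell cannot be told apart.

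Langerhans cell, dendritic cell and macrophage markers (20 of 20 measured) summed to 7427 to 8759 in untreated Lgr5-negative, 4204 to 5085 in untreated Lgr5-positive, 12620 to 15190 in vismodegib Lgr5-negative and 14510 to 18810 in vismodegib Lgr5-positive arrays. With vismodegib 16 of 20 rose in Lgr5-positive cells, against 6.37% of all genes, led by Lyz2 (6.73 ± 0.38) and Ctss (5.62 ± 0.58). In Lgr5-negative cells 4 rose, against 1.26% of all genes, led by C1qb (1.99 ± 0.17) and C1qc (1.78 ± 0.17). Epcam is on this list and also on that of keratinocytes. In untreated mice 8 were lower in Lgr5-positive cells, against 10.9% of all genes, with Ctss (−4.03 ± 0.58) and H2-Aa (−3.91 ± 0.73) at the head. Dll1, which was also higher in all vismodegib arrays, and Dtx4 moved beside them, and the part of these cells in their values was not tested.

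Notch3 and Heyl are known to act in vessel walls, so markers of vessel cells were read as well. Endothelial markers (13 measured) summed to between 562 and 639 over the 8 arrays, with 4 of the 13 dim in all, and 0 of 9 tested passed in any comparison. Pericyte and smooth muscle markers (9 of 12 measured) summed to between 490 and 781, highest in untreated Lgr5-positive arrays, where Notch3 was lowest. Mcam, which melanoma and vessel cells carry, fell by 1.41 ± 0.25 with vismodegib in Lgr5-positive cells and was higher by 1.39 ± 0.25 in these cells of untreated mice. It was the only one of the 9 to pass in either comparison. Over the 9 the median was 0.114 between untreated populations and −0.083 with vismodegib in Lgr5-positive cells. The part of these cells in the Notch3 values was not tested.

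Keratinocyte markers (10 measured) summed to between 29850 and 35490 in all arrays. Of these, the cadherin gene Cdh1 (0.56 ± 0.11) passed in the vismodegib effect in Lgr5-positive cells and the basal and bulge keratin gene Krt15 (2.15 ± 0.17) in Lgr5-negative cells. Untreated Lgr5-positive cells were higher in Krt15 (1.65 ± 0.17) and lower in Cdh1 (−0.65 ± 0.11). Of 5 tested fibroblast markers, Fbln1 (−1.40 ± 0.33) passed with vismodegib in Lgr5-positive cells and Col1a1 (0.88 ± 0.17) between untreated populations. Among 10 T cell markers 2 were lower in untreated Lgr5-positive cells, Thy1 (−1.14 ± 0.29) and Cd3e (−0.93 ± 0.21). Over all genes 10.9% were lower there, and 2 of 10 is too few for a result about the list. Of 7 tested melanocyte markers only Mitf (2.14 ± 0.23) rose in Lgr5-positive cells. The list did not follow it, with 2 of the 7 above 0, 5 below 0 and a median of −0.135.

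**Figure D4:**
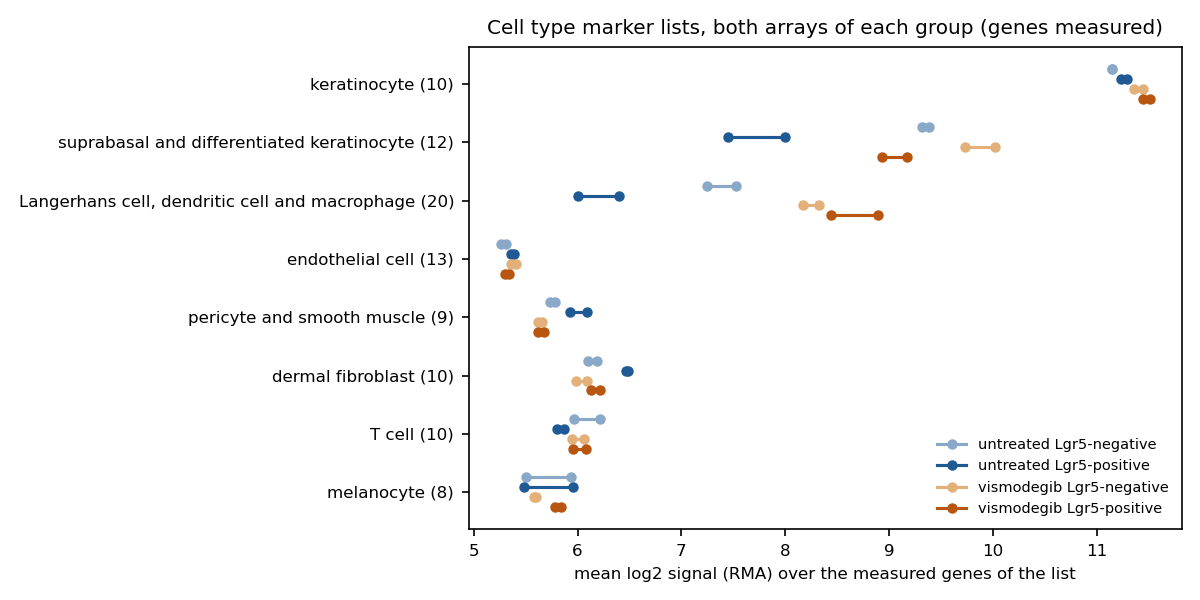
Mean log2 signal (RMA) of each cell type marker list in both arrays of every group, joined by a line, with the number of genes measured in brackets. Suprabasal and myeloid markers are lowest in the untreated Lgr5-positive arrays, while endothelial markers stay between 5.26 and 5.41.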

How the data were processed

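The authors' deposited values are log2 signals made with RMA (version not stated), per the submitters' processing notes. RMA corrects background, normalises between arrays by quantiles and summarises each probe set, so shifts common to all genes are removed. No further normalisation was applied. Medians of the 8 arrays lay between 6.13 and 6.20. With 2 mice per group, p-values rest on the spread between mice, pooled over the groups and drawn in part from other genes. Precision is limited by how few arrays there are.

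Of 45141 probe sets, 28898 mapped to 1 gene symbol, 551 to several, 15588 to none and 104 were controls. The brightest probe set represented each of 17097 genes, and the 14403 above 4.85 (the 25th percentile) in at least 2 arrays were tested. limma 3.58.1 (R 4.3.3, two-sided) fitted 4 group means with 4 residual degrees of freedom, adjusting by Benjamini and Hochberg. Its estimate of each gene's spread also drew on all genes tested, with 3.53 prior degrees of freedom. The procedure was tested on simulated data.

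The populations of a mouse share its number. Their deviations from group means correlated over genes at 0.142 without and 0.211 with the drug, and the mouse as a block was an alternative. Between treatments the number names different animals. Other alternatives were 2 other filters on dim genes, the mean of probe sets, every other probe set, cyclic loess, a variance trend, array weights, only the 4 arrays compared and leaving out each array.

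The members and lists were chosen with earlier results of these data known. All members are named. Of the other pathway genes up to 3 increases and 3 decreases past the threshold are named per comparison, with Rbpj, Notch4, Dll4 and Hes5, and of marker lists the 2 largest changes. Adam10, Adam17 and Mcam were also named after their values were seen.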

Additional observations from a re-analysis of the deposited data

How the results depend on the processing

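All 12 calls of members kept their direction in every alternative. Of the 33 member values not called, 12 changed sign in at least 1 alternative, with other probe sets left out of this count. With only the 4 arrays compared, called members numbered 3 for vismodegib in Lgr5-positive cells, 1 in Lgr5-negative cells and 3 between untreated populations, and called genes 234 (main 478) for vismodegib in Lgr5-negative cells and 11 (main 68) between vismodegib populations. With no filter the latter were 36. With the replicate block, called genes between vismodegib populations were 105, called members in Lgr5-negative cells were 1, since Dtx4 had adjusted p = 0.0584 where the number joins different animals, and no other member call changed but those of Notch2 and Hey1 given above. Leaving out 1 array gave from 2 to 5, 0 to 3, 2 to 5, 0 to 1 and 0 to 1 called members, in the order of the drug's effect in Lgr5-positive cells, its effect in Lgr5-negative cells, untreated populations, vismodegib populations and the difference between effects. Called genes then ranged from 543 to 1823, 65 to 523, 582 to 2852, 18 to 107 and 2 to 251. With an intensity trend Notch2 had adjusted p = 0.0628. Heyl could not be fitted with the filter at the median. The deposited values allowed no other background correction, and 2 mice per group limit all tests. An array outside a comparison does not enter its values, so leaving it out changed only their standard errors and p-values. The cause of the other changes was not tested.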
